A study of Danio rerio with 6 samples.

Results

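Microglia and macrophages are represented here by 5 genes, chosen by their Ensembl identifiers: *lcp1* (ENSDARG00000023188), *coro1a* (ENSDARG00000054610), *spi1b* (ENSDARG00000000767), *mpeg1.1* (ENSDARG00000055290) and *csf1ra* (ENSDARG00000102986). They are 5 of the 25190 genes in the count table and of the 32264 genes in the FPKM table. All 5 were found in both tables, and all 5 passed the filter on low counts that left 17242 genes for the test. The rule names the genes and sets no threshold on a measured value, but earlier results of these data were known when it was written.

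RNA-Seq was run on retinas microdissected from zebrafish larvae at 5 dpf (120 hpf), with 3 wild-type libraries (WT: WR1, WR2 and WR3) and 3 libraries from homozygous *pde6c* w59 mutants (*pde6c*: PR1, PR2 and PR3). Each library held 3 retinas from 3 larvae. The mutants came from heterozygous parents and the WT larvae from WT siblings of those parents, so parentage and mutation cannot be told apart. The larvae had been screened by their optokinetic response and dark-adapted before dissection, and the RNA was amplified before sequencing. Values per library are given below for WT in the order WR1, WR2, WR3 and for *pde6c* in the order PR1, PR2, PR3.

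Microglia are the resident macrophages of the retina and brain. In zebrafish larvae they derive from early embryonic macrophages that spread over the yolk and enter the eye and brain, depend on signals through the Csf1 receptors, and engulf dying neurons. *pde6c* encodes the catalytic subunit of the cone phosphodiesterase, and cones without it degenerate. The genes mark different breadths of the lineage. *spi1b* encodes Pu.1, a transcription factor that drives myeloid fate, and *csf1ra* one of the receptors for Csf1 and Il34. *mpeg1.1* encodes a pore-forming protein of macrophages, and *lcp1* (L-plastin) and *coro1a* (coronin 1a) encode actin-binding proteins of leukocytes in general.

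None of the 5 genes passed the threshold of a test between *pde6c* and WT retinas. The main test was edgeR's quasi-likelihood test, with p-values adjusted over all genes by the Benjamini-Hochberg method. An adjusted p under 0.1 was reached by 0 of the 5 genes, against 3.69% of all genes tested (1.40% higher and 2.29% lower in *pde6c*). At an unadjusted p under 0.05 edgeR also gave 0 of 5, against 12% of all genes. DESeq2 called 0 of 5, against 5.88%, and limma on FPKM 0 of the 3 it could test, against 1.81%. In all 5 genes the CPM (counts relative to TMM-scaled library totals) of the genotypes overlapped, whereas 16.9% of all genes tested had no overlap. In FPKM the genotypes overlapped for all but *csf1ra*, and 15.8% of the genes tested in FPKM had no overlap. The log2 fold change, *pde6c* relative to WT, was above 0 for 3 of the 5 genes and 50.3% of all genes. Its middle value among the 5 was the 0.28 of *spi1b*, beside a median of 0.0022 over all genes.

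The libraries held between 18757605 and 22510222 counted fragments, at which a floor of 3 counts per library corresponds to 0.129 to 0.169 CPM. Counts of replicates differed by 34.3 to 49.5 times counting noise (chi-square per degree of freedom), so no library had been deposited more than once within its genotype. The study's own summary of nonzero FPKM by library gives the genotypes the opposite way from the column names of the deposited tables. Directions here follow the column names, and the targeted gene could check them only in part. The gene had 0 counts in all 6 libraries, since its span (chr12:5094288-5119142) lies inside that of another gene and fragments on more than 1 gene were left out. Its FPKM was 445, 655 and 520 in WT and 60.1, 140 and 84.8 in PR1, PR2 and PR3. The cone transducin gene *gnat2* fell in *pde6c* by 1.95 on the log2 scale (adjusted p = 3.75e-06, edgeR's quasi-likelihood test) and the red opsin gene *opn1lw2* by 0.90 (adjusted p = 0.00817, same test). Their means over the 6 libraries were 2630 and 5695 FPKM, so the cones of a retina were well represented.

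**Figure D1:**
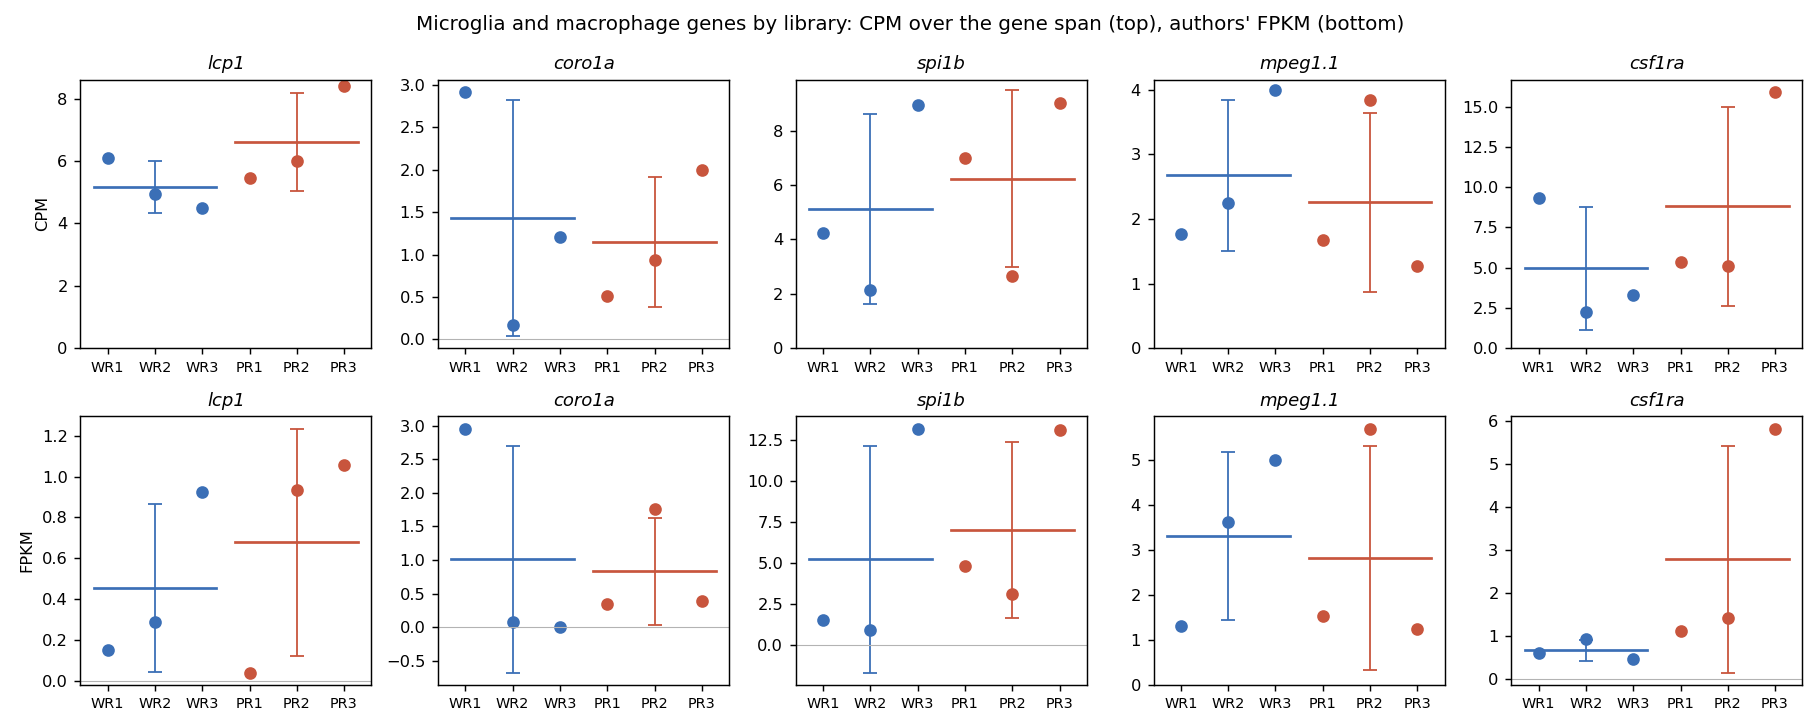
Level of each of the 5 genes in each library, as CPM over the whole gene span (top row) and as the authors' FPKM (bottom row), both on linear axes with their own scale per gene. Points are libraries (blue WT, red *pde6c*), horizontal lines are genotype means and vertical bars are SD (n = 3). The SD bars of 2 WT means in FPKM reach below 0, a level no library has, because single libraries lie far above the others. The genotypes overlap in every panel but the FPKM of *csf1ra*.

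*spi1b*, the gene of the transcription factor, lies on the minus strand of GRCz10 at chr7:32373523-32388203. It had 96, 38 and 186 counts in WT and 163, 57 and 186 in *pde6c*. The highest libraries of both genotypes had nearly equal CPM, 8.96 in WR3 and 9.04 in PR3, and each genotype also had a low library, WR2 at 2.14 CPM and PR2 at 2.67 CPM. The means were 5.11 ± 3.49 CPM (SD, n = 3) in WT and 6.24 ± 3.25 CPM (SD, n = 3) in *pde6c*. The log2 fold change was 0.28 with a standard error of 0.57 (adjusted p = 0.916, edgeR's quasi-likelihood test). Its approximate 95% interval, implied by the F statistic as are those that follow, ran from -0.93 to 1.496. The last 528 bases of a gene on the other strand overlap the *spi1b* span, and fragments on that stretch were left out of the count.

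*csf1ra*, the receptor gene, lies on the minus strand at chr14:3170816-3202049. Its counts were 211, 40 and 68 in WT and 125, 109 and 328 in *pde6c*. PR3 stood highest at 15.9 CPM, but WR1 at 9.32 CPM came next and lay above both PR1 and PR2, at 5.37 and 5.10 CPM. The mean was 4.95 ± 3.82 CPM in WT and 8.80 ± 6.18 CPM in *pde6c* (SD, n = 3 each). The log2 fold change, 0.82 with a standard error of 0.58, was the largest among the 5 genes (adjusted p = 0.653, edgeR's quasi-likelihood test). Its size depended on PR3 and WR1, which moved it in opposite directions. The log2 fold change was 0.089 without PR3 and 1.68 without WR1, and the latter had an adjusted p of 0.263 by the same edgeR test. The interval, -0.40 to 2.05, covers from 0.760 to 4.13 times the WT level.

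*mpeg1.1*, on the minus strand at chr8:29700878-29704389, is widely used to label macrophages and has the shortest span of the 5, 3512 bases. It had 40, 40 and 83 counts in WT and 39, 82 and 26 in *pde6c*. WR3 at 3.998 CPM and PR2 at 3.84 CPM were high, and the other 4 libraries lay between 1.26 and 2.25 CPM. PR3, which had the highest level of *spi1b*, *csf1ra* and *lcp1*, had the lowest of *mpeg1.1*. The means of 2.67 ± 1.17 CPM in WT and 2.26 ± 1.38 CPM in *pde6c* (SD, n = 3 each) gave a log2 fold change of -0.24 with a standard error of 0.67 (adjusted p = 0.944, edgeR's quasi-likelihood test) and an interval from -1.67 to 1.18.

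*lcp1*, on the minus strand at chr9:56663226-56705090, was the steadiest of the 5 genes. Its counts were 138, 88 and 93 in WT and 127, 128 and 173 in *pde6c*. PR3 at 8.41 CPM lay above all other libraries, while WR1 at 6.10 CPM lay above PR1 and PR2, at 5.45 and 5.99 CPM. The means were 5.18 ± 0.833 CPM in WT and 6.62 ± 1.57 CPM in *pde6c* (SD, n = 3 each). The log2 fold change was 0.35 with a standard error of 0.43 (adjusted p = 0.842, edgeR's quasi-likelihood test), and its interval, -0.57 to 1.27, was the narrowest of the 5. It leaves a *pde6c* level between 0.675 and 2.42 times that of WT.

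*coro1a*, on the minus strand at chr3:30795522-30810520, had the fewest counts: 66, 3 and 25 in WT and 12, 20 and 41 in *pde6c*. The WT libraries held both extremes, 2.92 CPM in WR1 and 0.169 CPM in WR2, and all 3 *pde6c* libraries lay between them. The exact 95% Poisson intervals were 51.0 to 84.0 counts for WR1 and 0.619 to 8.77 counts for WR2. These intervals cover counting error only. The means were 1.43 ± 1.39 CPM in WT and 1.15 ± 0.761 CPM in *pde6c* (SD, n = 3 each), with a log2 fold change of -0.33, a standard error of 0.94 and the widest interval, -2.31 to 1.66 (adjusted p = 0.947, edgeR's quasi-likelihood test).

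The spread between replicates was well above counting noise in all 5 genes. If only counting noise were present, the variance of the counts within a genotype would be about 1 times the counting variance. It was 5.47 times for *lcp1*, 14.5 for *mpeg1.1*, 18.4 for *coro1a*, 40.9 for *spi1b* and 76.3 for *csf1ra*. Against the 500 tested genes nearest in mean level, the SD of log2 CPM within genotypes was 0.28 for *lcp1*, where their median was 0.56, and 0.98 for *csf1ra*, where it was 0.50. *csf1ra* thus varied more than 95.6% of genes of its level and *lcp1* more than only 8.2%, while *spi1b*, *coro1a* and *mpeg1.1* exceeded 89.4%, 82.2% and 49.6%.

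Summed over the 5 genes, the level was 24.4, 11.8 and 21.9 CPM in WT and 20.0, 18.5 and 36.6 CPM in *pde6c*. WR2 was lowest and PR3 highest, and the remaining 4 libraries of both genotypes lay within a narrow range between them. The mean was 19.3 ± 6.68 CPM in WT and 25.1 ± 10.1 CPM in *pde6c* (SD, n = 3 each). The difference between the genotype means of the log2 sums was 0.37, or 1.29-fold. This log2 difference was 0.047 without WR2 and 0.062 without PR3, so it rested on those libraries. WR2 was the lowest library for 3 of the 5 genes, and PR3 the highest for 3. In libraries from whole retina, fewer cells of a type and less RNA per cell cannot be told apart, so a summed level is not a number of microglia.

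The FPKM, which divides by the length of the transcripts and so allows the genes to be set side by side, placed the 5 genes in another order than the counts over whole spans. The mean FPKM over the 6 libraries was 6.13 for *spi1b*, 3.06 for *mpeg1.1*, 1.73 for *csf1ra*, 0.919 for *coro1a* and 0.566 for *lcp1*. All were in the lower part of the tested genes, from the percentile of 46.3 for *spi1b* to 14.2 for *lcp1*. Their ranges over the libraries overlapped between each gene and the next in this order. By library, *spi1b* had 1.57, 0.940 and 13.2 FPKM in WT and 4.83, 3.11 and 13.1 FPKM in *pde6c*, again with WR3 and PR3 high.

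*csf1ra* was the only one of the 5 genes whose genotypes did not overlap in FPKM. It had 0.598, 0.930 and 0.474 FPKM in WT and 1.12, 1.42 and 5.83 FPKM in *pde6c*. All 3 *pde6c* libraries were higher, although PR1 exceeded WR2 by little, and 15.8% of the genes tested in FPKM also had no overlap (7.39% with *pde6c* higher). The difference on the log2(FPKM + 1) scale, which understates changes of low genes, was 0.98 with an interval from -0.14 to 2.11 and did not pass (adjusted p = 0.567, limma). For *spi1b* it was 0.75 (adjusted p = 0.799, limma) and for *mpeg1.1* -0.25 (adjusted p = 0.924, limma).

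*mpeg1.1* had 1.31, 3.61 and 5.00 FPKM in WT and 1.53, 5.69 and 1.24 FPKM in *pde6c*. *lcp1* had 0.151, 0.285 and 0.922 FPKM in WT and 0.0394, 0.937 and 1.06 FPKM in *pde6c*. *coro1a* had 2.95 and 0.0724 FPKM in WR1 and WR2, was listed at 0 in WR3, and had 0.348, 1.75 and 0.385 FPKM in *pde6c*. The order of the libraries for *mpeg1.1* was close to that in CPM, whereas *lcp1* and *coro1a* did not keep theirs. *lcp1* and *coro1a* were under 1 FPKM in more than 3 libraries and were not tested on this scale.

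*lcp1* was the clearest case of a difference between the tables. Its CPM spanned only 1.88-fold from the lowest to the highest library, but its FPKM spanned 26.9-fold. For *mpeg1.1*, with the shortest span, these ranges were 3.16-fold and 4.60-fold. The FPKM divided by the CPM per kb of span compares the density of fragments on the transcripts with that over the whole gene, introns included. This ratio was 4.02 for *lcp1*, lower than in all but 12.1% of the 3656 genes with spans within 1.5-fold of its own (median 10.4). For *spi1b* it was 15.8, above 86.8% of genes of like span (median 8.13), and for *coro1a*, *csf1ra* and *mpeg1.1* it was 10.7, 7.85 and 4.36, beside medians of 8.16, 9.58 and 4.93. By library, the ratio of *lcp1* ran from 0.303 in PR1 and 1.04 in WR1 to 8.62 in WR3, so the counts of WR1 and PR1 came with few fragments on the transcripts, and the steadiness of *lcp1* in CPM did not extend to its FPKM. What the fragments outside the transcripts were was not tested.

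**Figure D2:**
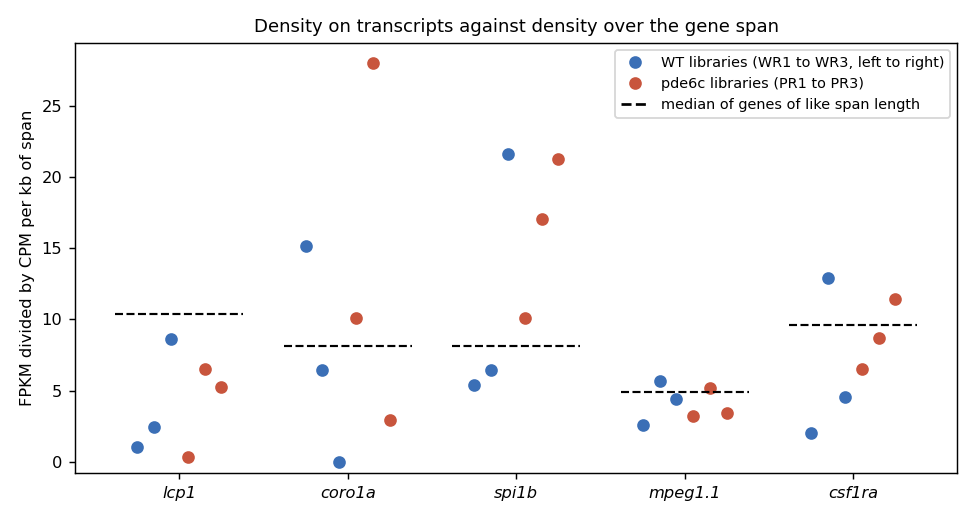
FPKM divided by CPM per kb of gene span (a ratio, linear axis) for each of the 5 genes, with WT libraries in blue and *pde6c* libraries in red, in the order WR1 to WR3 and PR1 to PR3 from left to right. The dashed line is the median over genes with spans within 1.5-fold of the gene's own. *lcp1* lies below its line in all 6 libraries, and *coro1a* runs from 0 in WR3 to 28.1 in PR2.

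Close relatives of the 5 genes gave no difference past the threshold either. *csf1rb*, the second Csf1 receptor gene of zebrafish, had 281, 116 and 178 counts in WT and 165, 474 and 439 in *pde6c*. PR2 and PR3 were high and PR1 was lower than WR1 and WR3, so the genotypes overlapped. Its log2 fold change of 0.88, with an interval from -0.015 to 1.77, was close in size to that of *csf1ra* (adjusted p = 0.432, edgeR's quasi-likelihood test). The FPKM of *csf1rb* leaned the other way, with means of 0.593 in WT and 0.393 in *pde6c*. By library it was 0.760, 0.357 and 0.664 in WT and 0.482, 0.249 and 0.449 in *pde6c*, with overlap. *spi1a*, the paralog of *spi1b*, had 60, 36 and 68 counts in WT and 63, 32 and 49 in *pde6c* and a log2 fold change of -0.27. Of the other genes named after *mpeg1.1*, 1 at chr8:19325655-19329417 had 101, 14 and 48 counts in WT and 57, 104 and 51 in *pde6c*. A further one, 51939 bases from *mpeg1.1*, had 2, 8 and 0 counts in WT and 0 in each *pde6c* library, and was too low to be tested. Whether near-identical copies share fragments with any of the 5 genes was not analysed here.

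Beyond the 5 genes, lists of myeloid and leukocyte genes were read from the same edgeR fit. The lists for Csf1r ligands and receptors, myeloid transcription factors, leukocytes in general, microglia and macrophage markers and the phagocyte oxidase hold 47 genes, the 5 described above included. Of these 42 were in the count table and 30 were tested. By edgeR's quasi-likelihood test 0 of the 30 were called in either direction (3.69% of all genes were), and 3 had an unadjusted p under 0.05 (12% of all genes did). DESeq2 called 0 of the 34 for which it gave an adjusted p, against 5.88% of all genes. By limma on FPKM 0 were called, against 1.81% of all genes it tested. It tests only genes that reach 1 FPKM in 3 or more libraries, which leaves out many of these lists. The median log2 fold change of the 30 was 0.31, with 18 above 0. CPM did not overlap between genotypes for 3 of the 30 (16.9% of all genes did not), higher in *pde6c* for *ptprc* and *p2ry12* and lower for *marco*.

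**Figure D3:**
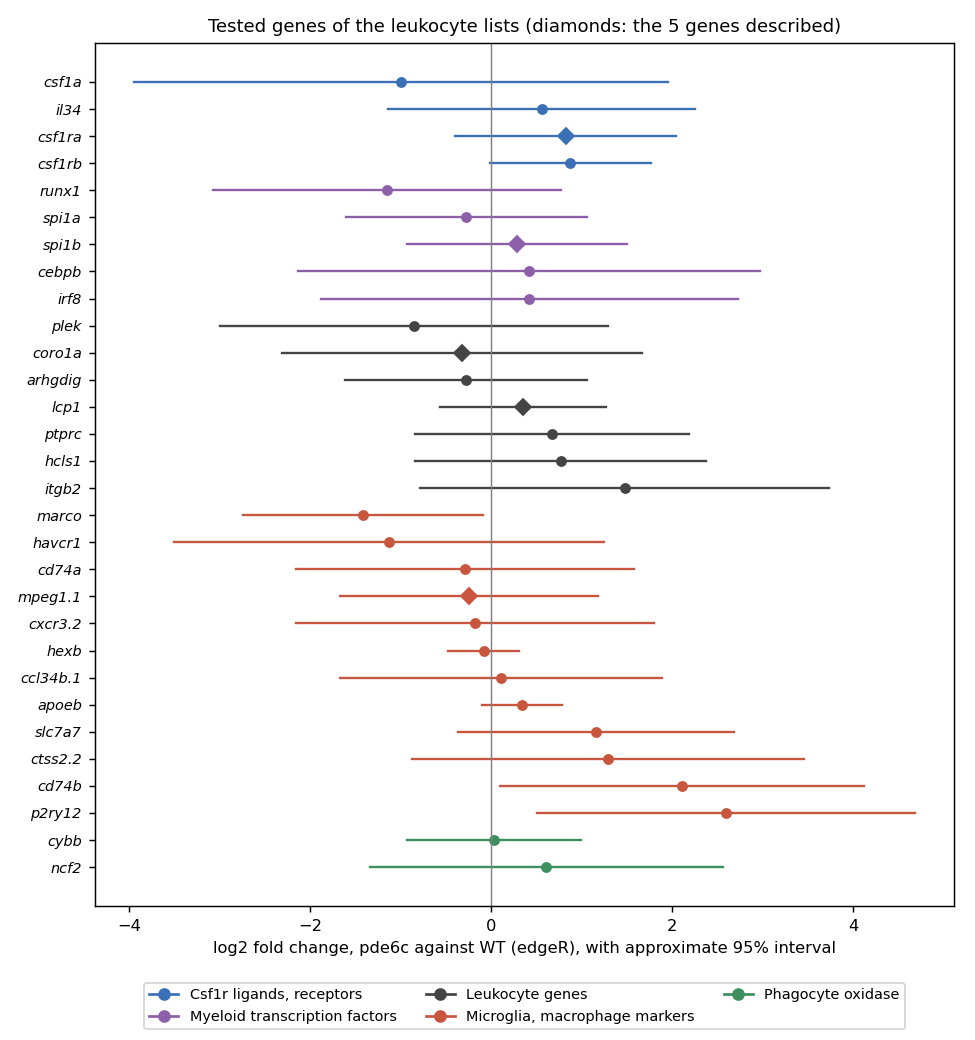
Log2 fold change of *pde6c* against WT from edgeR for the 30 tested genes of the 5 myeloid and leukocyte lists, with approximate 95% intervals as horizontal bars, coloured by list. Diamonds mark *lcp1*, *coro1a*, *spi1b*, *mpeg1.1* and *csf1ra*, whose intervals all cross 0; the intervals of *marco*, *cd74b* and *p2ry12* do not cross 0, and no gene passed after adjustment.

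Many of these genes were at the edge of detection. Of the 42, 29 had a mean under 1 FPKM. Among the markers of microglia, *c1qa*, *c1qb* and *c1qc*, which encode the chains of complement C1q, had 6, 1 and 24 counts over all 6 libraries together, and *tyrobp*, an adaptor of myeloid receptors, had 1. The marker *lgals9l1* had 0 counts, but its span overlaps 1 other gene and shared fragments were left out, so this does not show absence. Its FPKM was 0.346 to 0.993 in WT and 1.38 to 2.84 in *pde6c*, without overlap. Of the ligands of the Csf1 receptors, *csf1b* had 2 counts in all. *il34* had 24, 27 and 13 counts in WT and 24, 58 and 20 in *pde6c*, and a log2 fold change of 0.56 (adjusted p = 0.866, edgeR's quasi-likelihood test). The marker list did include abundant genes, but the 2 most abundant are not particular to microglia. *apoeb*, an apolipoprotein gene, had a mean of 116 FPKM and a log2 fold change of 0.35 (adjusted p = 0.573, same edgeR test), and *hexb*, a lysosomal hexosaminidase gene, had 89.9 FPKM and -0.084 (adjusted p = 0.924, same edgeR test). In these, the intervals were narrow, -0.10 to 0.79 and -0.47 to 0.30. The FPKM of *apoeb* did not overlap between genotypes, at 88.8 to 106 in WT and 121 to 156 in *pde6c*, although its CPM did. That of *hexb* overlapped. Of the genes tested in FPKM, 15.8% had no overlap. The marker next in FPKM was *ccl34b.1*, with a mean of 10.7 FPKM but only 95 counts over all 6 libraries. It had 11.2, 7.26 and 4.72 FPKM in WT and 16.7, 18.7 and 5.73 FPKM in *pde6c*, with overlap. Its log2 fold change was 0.11 (adjusted p = 0.983, same edgeR test).

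The genes with the highest FPKM in the other lists were also without a call. Among leukocyte genes in general this was *arhgdig*, with a log2 fold change of -0.27, and among transcription factors, after *spi1b*, it was *runx1*, with -1.15 (adjusted p = 0.931 and 0.712, edgeR's quasi-likelihood test). *cybb*, the membrane subunit of the phagocyte oxidase, had 127, 88 and 114 counts in WT and 145, 78 and 135 in *pde6c*. PR2 was the lowest library and PR1 and PR3 the highest, with WT between them, and the log2 fold change was 0.034 (adjusted p = 0.990, same test). Its partner *cyba* had 0, 6 and 0 counts in WT and 14, 4 and 53 in *pde6c*. It did not pass the filter on low counts for edgeR, and by DESeq2, which has its own filter, its adjusted p was 0.319.

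The 3 genes of these lists with an unadjusted p under 0.05 were chosen after their values were seen. *p2ry12*, a purinergic receptor gene of resting microglia, had 1, 4 and 14 counts in WT and 22, 39 and 62 in *pde6c*. Every *pde6c* library was above every WT library, but WR1 lay under the floor of 3 counts, and no fold is given (adjusted p = 0.254, edgeR's quasi-likelihood test). In FPKM the genotypes overlapped, at 0 to 0.627 in WT and 0.134 to 1.92 in *pde6c*. *marco*, a macrophage scavenger receptor gene, went the other way, with 82, 72 and 66 counts in WT and 40, 22 and 27 in *pde6c* (log2 fold change -1.41, adjusted p = 0.367, same edgeR test). The FPKM of *marco* was low and did not overlap, at 0.0823 to 0.643 in WT and 0 to 0.0686 in *pde6c*. Other markers were higher in *pde6c* without overlap in FPKM, among them *apoeb* and *lgals9l1*, given above, and *slc7a7*. The latter had 0.225 to 0.871 FPKM in WT and 1.27 to 1.51 FPKM in *pde6c*, but its CPM overlapped (adjusted p = 0.590, same edgeR test). No overlap in FPKM was seen for 15.8% of the genes tested in it. *cd74b*, a gene of antigen presentation, had 17, 2 and 7 counts in WT and 12, 46 and 54 in *pde6c*, with PR1 below WR1 (adjusted p = 0.379, same edgeR test).

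Microglia take up dead cells and release inflammatory signals, so genes of clearance, the lysosome and inflammation were also counted. With these lists, 51 genes were tested. By edgeR's quasi-likelihood test 0 were called (3.69% of all genes were). An unadjusted p under 0.05 was reached by 7 (13.7%, against 12% of all genes), and 7 did not overlap between genotypes (13.7%, against 16.9%). The median log2 fold change was 0.28, with 34 of 51 above 0 (66.7%, against 50.3%). DESeq2 called 1 of the 57 genes for which it gave an adjusted p, against 5.88% of all genes. By limma on FPKM 0 were called, against 1.81% of all genes it tested, and it could test only those with enough FPKM. The clearance genes *gas6* and *pros1* had 0 counts, but their spans each overlap 2 other genes, so this does not show absence. The FPKM of *gas6* overlapped. That of *pros1* did not, at 7.09 to 7.40 in WT and 8.85 to 18.5 in *pde6c* (15.8% of the genes tested in FPKM did not).

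The gene called by DESeq2 was *mertka*, a receptor tyrosine kinase that recognises dying cells. It had 222, 90 and 93 counts in WT and 216, 249 and 680 in *pde6c*. PR3 was far above the rest, and WR1 and PR1 were nearly equal, so the genotypes overlapped. The log2 fold change was 1.48 with an interval from 0.47 to 2.48 (adjusted p = 0.144 by edgeR's quasi-likelihood test and 0.0354 by DESeq2). PR3 also had the highest FPKM of *mertka*, 51.3, against 0.495 to 5.23 in the other 5 libraries. *elmo1*, which acts downstream in engulfment, had the highest FPKM of the clearance list, 185, and a log2 fold change of 0.23 (adjusted p = 0.630, same edgeR test).

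The inflammatory genes with an unadjusted p under 0.05, chosen after their values were seen, went opposite ways. *il1b*, the interleukin gene, had 15, 9 and 17 counts in WT and 35, 45 and 64 in *pde6c*, higher in every *pde6c* library (log2 fold change 1.74, adjusted p = 0.361, edgeR's quasi-likelihood test). Its FPKM overlapped, at 0.141 to 0.492 in WT and 0.916, 0 and 1.37 in *pde6c*. *tnfa*, the tumor necrosis factor gene, had 21, 10 and 32 counts in WT and 3, 2 and 0 in *pde6c*, with all 3 *pde6c* libraries at or under the floor of 3 counts (adjusted p = 0.120, same edgeR test). The FPKM of *tnfa* overlapped too, at 0.598, 1.19 and 0 in WT and 0, 0.244 and 0 in *pde6c*. *tnfb*, which had the highest FPKM of this list, had 36, 90 and 105 counts in WT and 126, 47 and 124 in *pde6c*, and the genotypes overlapped. In the lysosome list *ctsz*, a cathepsin gene, had 27, 8 and 22 counts in WT and 55, 78 and 51 in *pde6c*, without overlap (adjusted p = 0.361, same edgeR test). The FPKM of *ctsz* did not overlap either, at 1.54, 1.24 and 0.858 in WT and 2.77, 8.91 and 2.70 in *pde6c*. Of the genes tested in FPKM, 15.8% had no overlap. The more abundant *ctsd* overlapped and had a log2 fold change of 0.092.

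**Figure D4:**
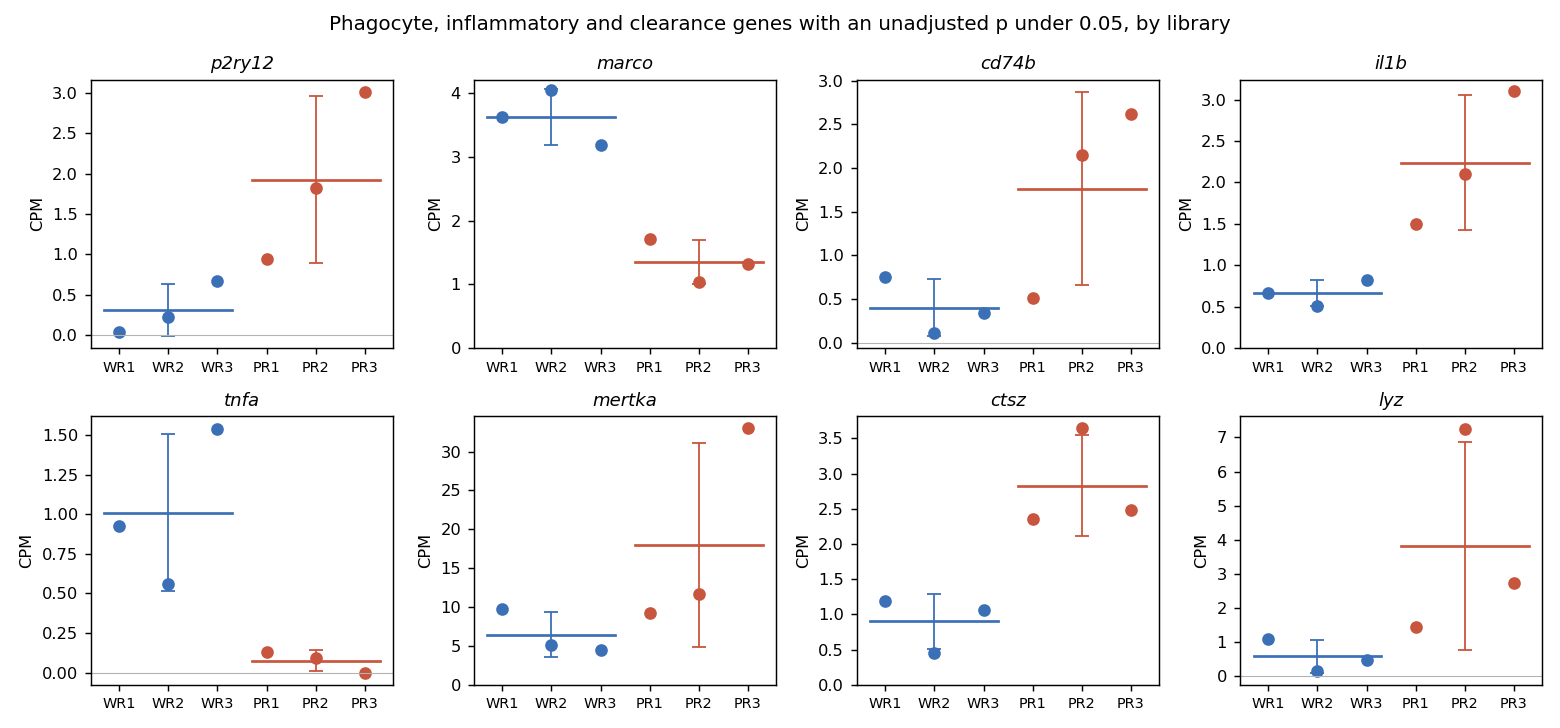
CPM by library (linear axes, own scale per gene) for the 8 phagocyte, inflammatory, clearance, lysosome and neutrophil genes with an unadjusted p under 0.05, WT in blue and *pde6c* in red, with genotype means as horizontal lines and SD as bars (n = 3). *marco* and *tnfa* are lower in every *pde6c* library, *p2ry12*, *il1b*, *ctsz* and *lyz* are higher in every one, *mertka* and *cd74b* overlap, and none had an adjusted p under 0.1 by edgeR.

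*lcp1* and *coro1a* are also expressed by neutrophils and other leukocytes, and those were measured by their own markers. Of 5 neutrophil genes listed, 3 were in the count table, with a summed level of 0.507 to 2.89 CPM in WT and 3.13 to 8.29 CPM in *pde6c*. This non-overlap came mainly from *lyz*, a lysozyme gene also found in macrophages, with 25, 3 and 10 counts in WT and 34, 155 and 56 in *pde6c*. It was not called by edgeR (adjusted p = 0.132) but was by DESeq2 (adjusted p = 0.0297), and its FPKM overlapped, at 0.517 to 6.53 in WT and 2.99 to 8.75 in *pde6c*. *csf3r*, the neutrophil growth factor receptor gene, had 25, 6 and 30 counts in WT and 29, 19 and 38 in *pde6c*. Of 10 lymphocyte genes, 9 were in the count table, with a summed level of 6.74 to 13.7 CPM in WT and 4.16 to 8.15 CPM in *pde6c*. The 13.7 CPM belongs to WR2, where *lck* alone gave 7.94 CPM (141 counts), against 0 counts in WR1 and WR3. *cd4-1* had 1 count in all. The part of neutrophils and other leukocytes in the levels of *lcp1* and *coro1a* was not tested.

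The summed markers of other cells in or near the retina overlapped between genotypes. Of 6 endothelial genes listed 5 were in the count table, summing to 117 to 154 CPM in WT and 104 to 125 CPM in *pde6c*. Of 6 pigment epithelium genes 3 were in it, at 4.24 to 7.65 and 3.94 to 10.4 CPM, and of 6 erythroid and thrombocyte genes 4 were, at 0.507 to 2.83 and 0.937 to 3.40 CPM, with the globin gene *hbae1.1* at 0 counts. The span of *hbae1.1* overlaps 5 other genes, and fragments shared with them were left out, so its 0 counts do not show absence. Its FPKM was 1.09 in PR2 and 0 in the other libraries. Of 5 Müller glia genes 3 were in it, at 184 to 239 CPM in WT and 156 to 200 CPM in *pde6c*, and no gene of the 3 passed the test. Most of this sum was *rlbp1a*, at 175, 142 and 154 CPM in WT and 141, 112 and 110 CPM in *pde6c*. It did not overlap (log2 fold change -0.37, adjusted p = 0.368, edgeR's quasi-likelihood test), as 16.9% of all genes did not. *gfap* went the other way and overlapped (log2 fold change 1.15, adjusted p = 0.625, same test). By edgeR's quasi-likelihood test no gene of these lists or of the neutrophil and lymphocyte lists had an adjusted p under 0.1, against 3.69% of all genes. Few were tested: 5 endothelial, 3 pigment epithelium, 2 erythroid and thrombocyte, 3 Müller glia, 2 neutrophil and 4 lymphocyte genes. With so few, the absence of a call says little about these cells. PR3, the library with the highest summed level of the 5 genes, was also the highest in the erythroid list but not in the endothelial, neutrophil or lymphocyte list. In the pigment epithelium and Müller glia lists PR3 was the lowest library.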

How the data were processed

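The authors amplified the RNA, sequenced paired ends, aligned the reads with STAR 2.5.3a to GRCz10 and counted fragments with featureCounts 1.5.2. The deposited counts are not normalized, cover the full extent of each gene with its introns, ignore strand, and omit fragments with several alignments or lying on more than 1 gene. The authors' second table holds FPKM from Cufflinks 2.2.1, from which depth cannot be read. The files list Ensembl identifiers. Names of genes other than the 5 were matched through a table of gene names, which gave 1 identifier for 101 of 126 listed symbols, several for 2 and none for 23.

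Counts were tested with edgeR 4.0.16 in R 4.3.3 (filterByExpr with a minimum count of 10, TMM, quasi-likelihood test of genotype alone, Benjamini-Hochberg adjustment over 17242 genes, threshold 0.1). Standard errors are approximate: the size of the log2 fold change over the root of the F statistic. DESeq2 1.42.0 was an alternative, and so was limma 3.58.1 with log2(FPKM + 1) of genes that reach 1 FPKM in 3 or more libraries, as were other filters, size factors and dispersions, a threshold of 0.05, a replicate block and leaving out each replicate. Genes named were the 5, their relatives, the cone genes, called list genes or else up to 2 of those with the highest FPKM in a list, and the most similar profiles. Some list genes at or near 0 counts, without overlap or with an unadjusted p under 0.05 were named in addition, after their values were seen. So were the marker *ccl34b.1*, the neutrophil gene *csf3r*, the lymphocyte gene *lck* and the Müller glia gene *gfap*. Not every list gene of these kinds is named. The 5 genes and all lists were chosen with earlier results of these data known. The replicates are separate pools of larvae. Sequences were not used here.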

Additional observations from a re-analysis of the deposited data

How the results depend on the processing

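Of 75 values of the 5 genes under other settings, 67 kept their direction, 8 reversed and 0 passed the threshold. The threshold of 0.05 and the other estimate of dispersion left the log2 fold changes of the main fit as they were. Under those settings no direction could reverse. All 8 reversals belong to *coro1a*, *spi1b* and *mpeg1.1*, whose intervals cross 0 widely, and the cause of each was not tested. *coro1a*, at -0.33, was 0.20 with the replicate block and 0.092 with limma on log2(FPKM + 1) without a filter. With 1 replicate left out it ran from -0.97 to 0.74, *spi1b* from -0.083 to 0.97, *mpeg1.1* from -0.86 to 0.18, *lcp1* from 0.15 to 0.50 and *csf1ra* from 0.089 to 1.68. The reversals came without WT replicate 1 or *pde6c* replicate 1 for *coro1a*, without WT replicate 2 or *pde6c* replicate 3 for *spi1b*, and without WT replicate 3 or *pde6c* replicate 3 for *mpeg1.1*. *coro1a* did not pass a filter of 10 counts in each library or that on FPKM, and *lcp1* did not pass the latter.

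Over all genes, the 636 calls became 1081 with DESeq2, 984 with the replicate block, 269 with limma on log2(FPKM + 1), 208 with a pseudocount of 0.1, 92 without a filter on FPKM, and 414 to 537 with 1 replicate left out. Same-numbered libraries deviated together only weakly, with correlations of 0.088, 0.043 and 0.035, and the main test did not pair them. The replicate block all the same gave more calls, 984 against 636. The clearance list, with 0 calls, had 1 (*mertka*) with DESeq2 and with a minimum of 10 counts in each library (adjusted p = 0.0860, edgeR), and 0 to 1 with 1 replicate left out (adjusted p = 0.0999 without WT replicate 1 and 0.0752 without *pde6c* replicate 1, edgeR). The neutrophil list had 1 (*lyz*) with DESeq2. The other 12 lists outside the cone genes had 0 under all 16 settings. With 3 libraries a genotype and levels of 1.29 to 6.88 CPM, the intervals allow differences of more than 2-fold for each of the 5 genes in at least one direction.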

Other observations

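The profile of the 5 genes over the libraries, taken as the mean of their standardized log2 CPM, was highest in PR3 (0.75) and lowest in WR2 (-0.98), with the other 4 libraries between -0.20 and 0.28. Of the 10 pairs among the 5 genes, 6 had a positive Pearson's r and 4 a negative one. All 4 negative pairs include *mpeg1.1*, so this mean is not a pattern that all 5 genes shared. Among 13943 named genes with a mean log2 CPM of at least 1, those with the most similar pattern over the 6 libraries were *DCP2* (Pearson's r = 0.987), *TMEM241* (0.985), *CPEB1* (0.984), *tmtopsb* (0.981) and *N4BP1* (0.979). With so many genes and 6 libraries such values are given as a description alone. None of these genes is a marker of macrophages by name, and none was called between genotypes. *DCP2* had 36.6, 27.1 and 35.2 CPM in WT and 31.3, 34.4 and 43.3 CPM in *pde6c*.

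Of the relatives of the actin-binding genes, *coro1b* had a log2 fold change of 0.12 and *PLS3* of 0.054, with intervals of -0.26 to 0.50 and -0.46 to 0.57, narrower than those of *coro1a* and *lcp1*. *PLS1* had a log2 fold change of 0.69 and an interval of -0.69 to 2.08, wider than that of *lcp1*. The *CORO1C* gene at chr5:19815719-19916063 had 1376, 1095 and 1313 counts in WT and 1588, 1724 and 2231 in *pde6c*, and a log2 fold change of 0.47 (adjusted p = 0.320, edgeR's quasi-likelihood test). Another *CORO1C* gene, at chr5:31282956-31304409, had a higher mean FPKM, 36.3 against 7.65. Its log2 fold change was 0.096, with an interval of -0.29 to 0.49 (adjusted p = 0.911, same test).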
